A study of Mus musculus with 16 samples.

Results

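The genes described here encode ion channels and neurotransmitter receptors best known from nerve and muscle cells, measured in activated CD4 T cells of Ezh2-deleted and control mice. They were chosen by symbol alone: Kcn, Scn, Cacna, Cacnb, Cacng, Gabr, Gria, Grid, Grik, Grin and Grm names followed by the usual subunit letters or digits. The pattern took 181 of 23420 genes in the RNA files and 180 of 22269 gene intervals in the ChIP files. Of the 181, 40 encode pore subunits of voltage-gated potassium channels, 15 inward rectifiers, 14 tandem-pore leak channels (Kcnk), 8 calcium- or sodium-activated potassium channels and 16 potassium channel auxiliary subunits. Voltage-gated calcium channels gave 10 pore and 16 auxiliary subunits, and voltage-gated sodium channels 14 subunits. Receptors gave 18 ionotropic and 8 metabotropic glutamate receptor genes and 19 GABA-A receptor subunits. The remaining 3 are not channel subunits: Grina, a membrane protein of the TMBIM family, Grid2ip, a synaptic scaffold, and Kcnq1ot1, an imprinted antisense RNA that has no ChIP interval and lies opposite Kcnq1.

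Ezh2 is the catalytic subunit of Polycomb repressive complex 2 (PRC2), which trimethylates histone H3 at lysine 27 (H3K27me3), a mark found over silent developmental and lineage genes. Neuronal channel and receptor genes are widely held silent outside the nervous system, and many carry H3K27me3 there. T cells use a few of the same families: the potassium channels Kcna3 (Kv1.3) and Kcnn4 (KCa3.1) keep the membrane negative, and this drives calcium entry through the Orai1 channel after antigen receptor stimulation.

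Naive CD4 T cells were purified on a flow sorter and activated with plate-bound anti-CD3 at 5 ug/ml and soluble anti-CD28 at 1 ug/ml. All mice carried 2 floxed Ezh2 alleles. Ezh2-deleted cells came from Ezh2 fl/fl.CD4Cre mice, in which Cre is driven by Cd4, a promoter active in T cells of both the CD4 and the CD8 lineage from the thymus onward. Control cells came from Ezh2 fl/fl mice without Cre, which the labels call wild type. Th0 cultures received recombinant human IL-2 at 50 U. iTreg cultures received IL-2 at 200 U/ml and TGF-b1 at 5 ng/ml, the cytokine used to drive naive cells towards the Foxp3-expressing regulatory fate. By their titles the Th0 RNA is of day 4 and the iTreg RNA of day 5, whereas the protocol has all cells harvested on day 4. Each genotype and culture has 3 RNA libraries (12 libraries), and H3K27me3 was read by ChIP-seq from 2 libraries per genotype in Th0 cells (4 libraries). Each library is named by its title number. Ezh2KO.165 and control 177 occur in both cultures, and nothing in the labels says whether a number is an animal. P-values therefore measure the spread between these libraries, which may be partly technical.

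RNA libraries held 21910114 to 28443427 counted reads and ChIP libraries 11124172 to 15103496. Ezh2 RNA stood at 295 to 312 counts per 1000000 reads (CPM) in the Th0 control libraries and at 148 to 169 in the Ezh2-deleted ones. In iTreg cells it stood at 166 to 251 in control and 48.7 to 123 in Ezh2-deleted libraries, so the genotypes did not overlap in either culture. The change in Ezh2 was -0.99 ± 0.30 on the log2 scale in Th0 (SE, edgeR adjusted p = 0.0618, and 0.000670 without iTreg Ezh2KO.165) and -1.18 ± 0.30 in iTreg cells (edgeR adjusted p = 0.0235, and 0.0781 and 0.0802 without control 154 and without control 155). The library iTreg Ezh2KO.165 stood apart from the other 2 of its group: 20 of the 56 channel and receptor genes tested in RNA (35.7%) lay over 2-fold from their mean, against 33.1% of all genes tested. iTreg control 177 followed with 13 of 56 (23.2%), against 10.9% of all genes. Ezh2KO.165 also had Xist at 1050 CPM in Th0 and 1140 in iTreg, against at most 0.857 in the other 10 libraries. The Y-linked gene Ddx3y stood at 0.386 and 0.183 CPM there, against 87.4 to 187 in the other 10. Each Ezh2-deleted RNA group thus held a library with the expression pattern of female cells, and no control group did. The labels give no sex, and its part in the genotype changes was not tested. B cell markers (8 genes) summed to 29.5 to 54.7 CPM in Th0 control and 112 to 268 in Th0 Ezh2-deleted libraries, with 8 of 8 called higher, and to 13.2 to 14.4 and 4.72 to 6.07 in iTreg cells. Neuron markers (12 genes) summed to 5.98 to 6.97 and 21.4 to 23.9 CPM in Th0 cells and to 5.03 to 6.21 and 10.7 to 25.8 in iTreg cells. Map2 was the member called higher in both cultures, at 2.89 to 4.09 and 17.4 to 20.7 CPM in Th0 and 1.01 to 2.20 and 6.12 to 22.5 in iTreg cells. Of the other neuron markers, Syp averaged 1.31 to 2.04 CPM and Tubb3 0.667 to 1.59 over the 4 groups, Stmn2 and Snap25 at most 0.400 and 0.373, and Rbfox3, Syt1, Nefl, Nefm and Elavl4 0 to 0.0487. NK cell markers (5 genes) summed to 0.878 to 1.19 CPM in control and 5.91 to 12.5 in Ezh2-deleted Th0 libraries, and to 15.9 to 21.4 and 48.4 to 97.2 in iTreg cells. CD8 T cell markers (2 genes) summed to 6.91 to 10.0 and 6.33 to 10.0 CPM in Th0 cells and to 18 to 26.7 and 39.6 to 138 in iTreg cells. CD4 T cell markers (8 genes) summed to 2660 to 2770 and 1680 to 1990 CPM in Th0 cells, with Cd4 and Cd5 called lower. Foxp3, the defining factor of regulatory T cells, stood at 850 to 979 CPM in iTreg control and 65.2 to 90.9 in iTreg Ezh2-deleted libraries, so the deleted cells of that culture held little of it. The part of these transcripts in the results below was not tested, and in these bulk libraries fewer cells of a type and less RNA per cell cannot be told apart.

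The ChIP values cover whole gene bodies, so promoters were not measured on their own. For orientation, the promoters of the 2 genes with the highest H3K27me3 in control cells (Kcnk4 and Kcna7) and of 2 of the 3 with the lowest (Kcna3 and Kcnn4) are printed 5′ to 3′ from RefSeq (GRCm38.p6), from 250 bases before to 50 bases after the start site. Capitals mark CG dinucleotides, the letters searched, which read the same on both strands. The windows are chr19:6934466-6934765 (minus strand), chr7:45405710-45406009, chr3:107035912-107036211 and chr7:24370013-24370312 (all plus strand).
Kcnk4: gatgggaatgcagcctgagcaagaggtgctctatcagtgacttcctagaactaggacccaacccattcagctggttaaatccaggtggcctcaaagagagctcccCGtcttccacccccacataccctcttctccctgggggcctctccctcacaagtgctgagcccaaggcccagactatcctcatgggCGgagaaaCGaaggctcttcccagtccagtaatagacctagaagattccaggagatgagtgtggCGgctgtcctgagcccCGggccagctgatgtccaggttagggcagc
Kcna7: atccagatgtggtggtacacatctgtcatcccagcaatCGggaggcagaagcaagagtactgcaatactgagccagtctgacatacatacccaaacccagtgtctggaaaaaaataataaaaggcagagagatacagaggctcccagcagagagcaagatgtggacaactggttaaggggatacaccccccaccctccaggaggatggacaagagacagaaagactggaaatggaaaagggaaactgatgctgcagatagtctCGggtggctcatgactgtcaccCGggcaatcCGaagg
Kcna3: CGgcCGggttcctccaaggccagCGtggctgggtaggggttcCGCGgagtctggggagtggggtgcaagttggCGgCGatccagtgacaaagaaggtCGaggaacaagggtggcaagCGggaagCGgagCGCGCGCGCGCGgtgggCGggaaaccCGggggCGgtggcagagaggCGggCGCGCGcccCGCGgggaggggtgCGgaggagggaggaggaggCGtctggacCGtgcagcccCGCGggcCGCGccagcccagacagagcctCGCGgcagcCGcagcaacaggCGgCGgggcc
Kcnn4: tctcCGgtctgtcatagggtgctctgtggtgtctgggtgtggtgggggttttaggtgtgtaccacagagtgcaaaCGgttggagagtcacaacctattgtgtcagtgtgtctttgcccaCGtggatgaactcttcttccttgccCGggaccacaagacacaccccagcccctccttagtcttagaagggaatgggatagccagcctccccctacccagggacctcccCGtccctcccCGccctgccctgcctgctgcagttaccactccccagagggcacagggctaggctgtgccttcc
These windows hold 5, 4, 37 and 6 CG dinucleotides. Over the 116 channel and receptor genes with a promoter matched to their interval, the median was 12 CG, against 15 over 14654 matched promoters of all genes, and 59.5% held at least 10, against 61.1%. The 59 genes whose H3K27me3 was lower in Ezh2-deleted cells had a median of 12 CG, the 45 not called had 10, and the 12 whose mark was higher had 17.5. Over all matched promoters these medians were 13, 7 and 23. Median control density was lower where the promoter held more CG. It was 1.42 CPM per kb for channel and receptor genes with at least 10 CG and 1.61 for those with fewer. Over all genes it was 0.539 and 1.15. No test compared these medians. Kcna3 and Kcnn4, with 37 and 6 CG, both had little of the mark.

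H3K27me3 was denser over the channel and receptor genes than over gene intervals at large. The level is given as density, the CPM of ChIP reads per kb of the gene interval, which allows genes of different length to be compared. In control Th0 cells the median density of the 180 intervals was 1.47 CPM per kb (interquartile range 1.03 to 2.09), against 0.847 (0.433 to 1.38) over all intervals. The medians were 1.41 and 1.56 in control libraries 33 and 7. Of the 180, 39 (21.7%) were among the densest 10% of all intervals, at 2.16 CPM per kb or more. Among the 83 with no read in the Th0 control RNA libraries this share was 16.9%, against 16.3% of all such intervals. Among the 21 with at least 1 CPM in every such library it was 9.52%, against 1.53%. In Ezh2-deleted cells the median of the 180 was 1.12 CPM per kb, and the interquartile range narrowed to 1.03 to 1.20, against 0.936 (0.826 to 1.12) over all intervals.

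**Figure D1:**
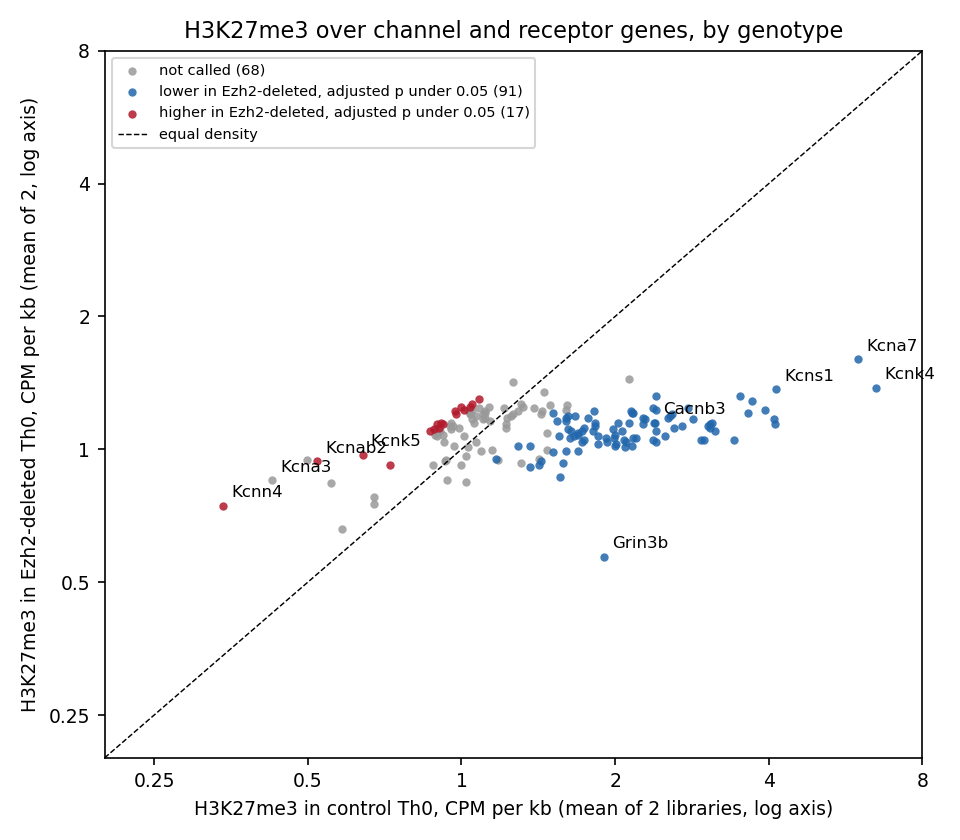
H3K27me3 density of 176 channel and receptor genes with reads in control (x axis) and Ezh2-deleted (y axis) Th0 cells, in CPM per kb as means of 2 libraries on log axes; colour gives the edgeR call and the dashed line marks equal density. In control cells the genes spread from 0.341 (Kcnn4) to 6.49 (Kcnk4), whereas in Ezh2-deleted cells they gather around 1.12.

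Between genotypes, 91 of 176 intervals tested (51.7%) were lower and 17 (9.66%) higher in Ezh2-deleted cells by edgeR's quasi-likelihood test at an adjusted p under 0.05, scaled by library size. Over all 20376 intervals tested, 20.6% were lower and 32.2% higher. On simulated data this test made more false calls than its threshold allows, and its adjusted p-values for single genes below carry that limit. The median log2 change was -0.45 for the channel and receptor genes and 0.21 for all intervals, a distance of -0.66. With TMM scaling, which centres the bulk of the intervals, those medians became -0.69 and -0.02, the distance stayed at -0.66, and the calls became 107 lower and 2 higher (Kcnn4 and Kcnab2). The direction of a gene near the middle therefore depends on the scaling, and changes are best read against the median of all intervals. Counts from the alternative fits in this paragraph stand without the share of all intervals called in the same fit. Leaving out Ezh2KO.10 or Ezh2KO.9 left no interval called by edgeR among all genes, although 87 and 74 of the 176 were lower at an unadjusted p under 0.05. The 4 ChIP libraries also differed over the X chromosome, whose median interval density was 0.466 and 1.19 in control libraries 33 and 7 and 0.945 and 0.721 in Ezh2KO.10 and Ezh2KO.9. With X and Y intervals left out of the fit, 92 of 169 were lower and 20 higher, and 75 and 67 were lower without Ezh2KO.10 and without Ezh2KO.9.

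The most densely marked gene was Kcnk4 (TRAAK, a mechanically gated leak channel of neurons; chr19:6925710-6934515), at 6.05 and 6.92 CPM per kb in control libraries 33 and 7 and 1.12 and 1.63 in Ezh2KO.10 and Ezh2KO.9. Both deleted libraries lay far below both controls, and the level in deleted cells was 21.2% of that in controls (log2 change -2.24 ± 0.24, SE, n = 2 per genotype; edgeR adjusted p = 9.95e-05). Kcna7, a Shaker-type potassium channel known from muscle, followed at 5.42 and 6.54 in control and 1.33 and 1.87 in deleted libraries. Kcns1, a silent modifier subunit of Kv channels, stood at 3.80 and 4.45 and then 1.41 and 1.33. Kcne3, a small auxiliary subunit that associates with Kcnq1, stood at 4.02 and 4.20 and then 1.00 and 1.28. Grin2c, an NMDA receptor subunit known from the cerebellum, stood at 3.71 and 4.50 and then 1.21 and 1.14. In each of these genes the genotypes did not overlap, and the density in deleted cells was 21.2% (Kcnk4) to 33.2% (Kcns1) of that in controls. No background was subtracted, and the median of all channel and receptor genes in deleted cells was 1.12 CPM per kb. These percentages therefore do not give the share of the mark that was kept. Lack of overlap was common with 2 libraries per genotype. Over all intervals tested, both deleted libraries lay below both controls in 31.6% and above both in 48.1%. Among channel and receptor genes these shares were 59.1% and 22.7%. Grid2ip, Kcnk15 and the X-linked Kcne1l completed the 8 highest, at 3.71, 3.64 and 3.94 CPM per kb in control and 1.29, 1.21 and 1.23 in deleted cells. Grin3b and Kcnab3 were also among the largest falls (log2 change -1.73 ± 0.27 and -1.71 ± 0.25; edgeR adjusted p = 0.000663 and 0.000419). The Grin3b interval overlaps Tmem259, and reads in the shared stretch were not counted, so its densities of 1.71 and 2.09 in control and 0.573 and 0.569 in deleted libraries are too low in both genotypes.

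Rises were small or belonged to genes that T cells express. The least marked of the genes without overlap was Kcnn4 (chr7:24370263-24385209), at 0.391 and 0.291 CPM per kb in control and 0.620 and 0.871 in deleted libraries. Its deleted libraries lay above both controls (log2 change 1.13 ± 0.29; edgeR adjusted p = 0.00767). Rises were usual for expressed genes with this scaling, which fixes the total, so each rise is relative to other intervals. Over all intervals with at least 1 CPM of RNA in every Th0 control library, the median log2 change was 0.81. Of those tested, 62.0% were called higher. Kcna3, at 0.320 and 0.531 and then 0.606 and 1.10, and Kcnk7, a leak channel family member not known to conduct, at 0.526 and 0.471 and then 1.23 and 0.657, rested on few reads and did not pass (edgeR adjusted p = 0.111 and 0.0634). Kcnk7 passed without control 33 (edgeR adjusted p = 0.0409) and with X and Y intervals left out (0.0245). Kcnab2, the beta subunit of Kv1 channels, stood at 0.539 and 0.504 in control and 1.03 and 0.849 in deleted libraries and was called (edgeR adjusted p = 0.00287). So was Kcnk5 (TASK-2), at 0.655 and 0.625 and then 1.07 and 0.870 (edgeR adjusted p = 0.0275). Kcnq5 rose by 0.35 on the log2 scale, close to the 0.21 of the median interval. Of the 17 genes called higher, 14 span at least 100000 bases, against 18 of the 91 called lower, and the median rise was 0.33. Only Kcnn4 and Kcnab2 of the 17 were still called higher with TMM scaling, and none of the other 15 with DESeq2 size factors.

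A mark confined to part of a gene gives a lower density over a longer interval, so the shares were also taken by length. Channel and receptor genes are long, with a median interval of 57758 bases against 15693. Within the class of 4876 to 15693 bases, 25 of 33 (75.8%) were lower, against 24.1% of all intervals of that class. In the next class, up to 42445 bases, 24 of 37 (64.9%) were lower, against 19.2%. Among the longest, 39 of 99 (39.4%) were lower, against 21.0%. In the shortest class 3 of 7 were lower, too few for a share. The share of lower genes was above that of other genes in each of the 3 larger length classes.

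**Figure D2:**
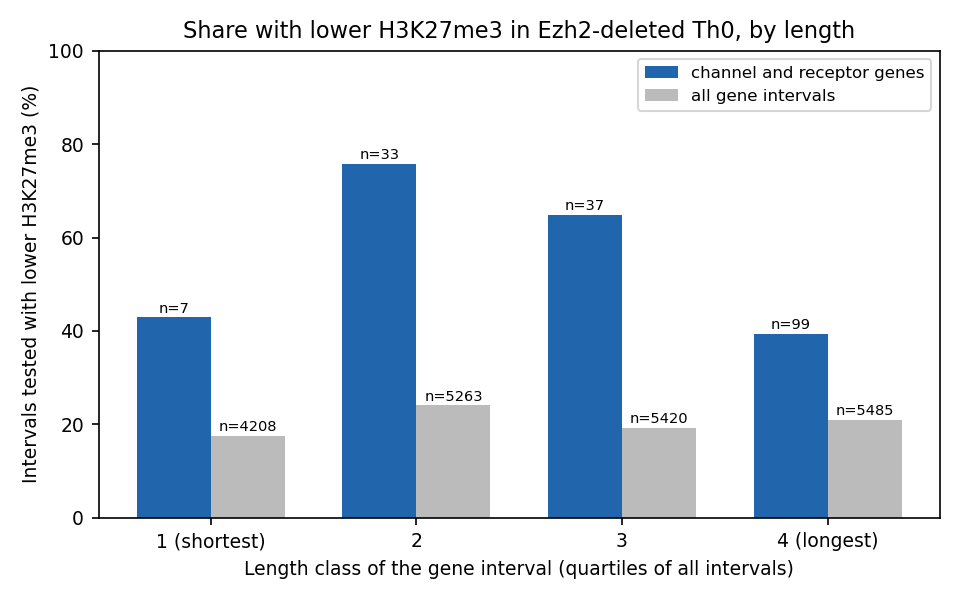
Percentage of intervals tested whose H3K27me3 was lower in Ezh2-deleted Th0 cells (y axis) in 4 classes of interval length (x axis, quartiles of all intervals), for channel and receptor genes (blue) and all gene intervals (grey); n is the number tested. The blue bars stand at 75.8%, 64.9% and 39.4% in classes 2 to 4, against 24.1%, 19.2% and 21.0%.

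The families are described by their counts. They differ in interval length, and no test compared them. Each share is to be read beside 51.7% lower over all channel and receptor genes tested and 20.6% over all intervals. Inward rectifiers, which let potassium in more readily than out, had 11 of 14 lower (78.6%). Kcnj9 and Kcnj8, subunits of G protein-gated and of ATP-sensitive channels, had the highest control densities among them at 3.09 and 3.07 CPM per kb, and fell to 1.15 and 1.14. Kcnj8 (chr6:142564939-142571356) stood at 2.70 and 3.43 in control and 0.928 and 1.34 in deleted libraries. Kcnj16, Kcnj14 and Kcnj3 were not called. Among the leak channels 8 of 14 were lower, and among voltage-gated potassium channel pores 22 of 39. Within the latter, the silent subunits (Kcnf, Kcng, Kcns and Kcnv) had the highest median control density, 2.14 CPM per kb, with 6 of 10 lower. Kcnf1, the densest of them after Kcns1, fell from 3.51 to 1.32. Potassium channel auxiliary subunits had 9 of 15 lower, among them Kcnip3 (DREAM, a calcium-binding modifier of Kv4 channels that also binds DNA), at 2.10 and 2.29 and then 1.11 and 1.01. The calcium- and sodium-activated channels had 4 of 8 lower, with Kcnn3 and Kcnn1, close relatives of Kcnn4, at 2.13 and 2.09 in control and 1.15 and 1.01 in deleted cells.

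Of the voltage-gated calcium channel pores, 8 of 10 were lower. They included the T-type genes Cacna1g, Cacna1h and Cacna1i, at 2.41, 1.63 and 1.85 CPM per kb in control and 1.10, 1.06 and 1.03 in deleted cells. The skeletal muscle gene Cacna1s stood at 1.66 and 1.73 and then 1.16 and 1.00. The L-type gene Cacna1c, at 1.20 and 1.39 and then 1.15 and 1.29, overlapped between genotypes (log2 change -0.09 ± 0.12; edgeR adjusted p = 0.574). Auxiliary calcium channel subunits had 11 of 16 lower, and 7 of the 8 Cacng genes, which encode AMPA receptor-binding TARPs and muscle gamma subunits. Cacnb3, a beta subunit that T cells express, stood at 1.96 and 2.82 in control and 1.20 and 1.09 in deleted libraries (log2 change -1.06 ± 0.24; edgeR adjusted p = 0.00472). Sodium channels had 7 of 13 lower, including the beta subunit genes Scn4b and Scn3b, which fell from 3.14 and 2.17 to 1.10 and 1.06.

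Receptor intervals are long, with family medians of 88575 (GABA-A), 250611 (ionotropic glutamate) and 318207 bases (metabotropic glutamate). Of the ionotropic glutamate receptor genes 5 of 18 were lower and 5 higher, and 4 of the 5 lower ones encode NMDA receptor subunits (Grin1, Grin2c, Grin2d and Grin3b). Of the 4 AMPA receptor genes none was lower by edgeR or DESeq2, nor at an unadjusted p under 0.05 (0 by either). Grin2d (chr7:45831883-45870928) stood at 2.83 and 3.30 CPM per kb in control and 1.08 and 1.15 in deleted libraries. Metabotropic glutamate receptors had 3 of 8 lower (Grm2, Grm4 and Grm6) and GABA-A subunits 2 of 19, Gabrd and Gabrr3. The median log2 change of these 3 families was 0.03, 0.11 and 0.13 with library size scaling and -0.21, -0.12 and -0.10 with TMM, so its sign depended on the scaling, while that of the other families was negative with both. In deleted cells the median density of the families lay between 1.05 and 1.17 CPM per kb, whereas in control cells it ran from 1.03 (GABA-A) to 2.03 (inward rectifiers).

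**Figure D3:**
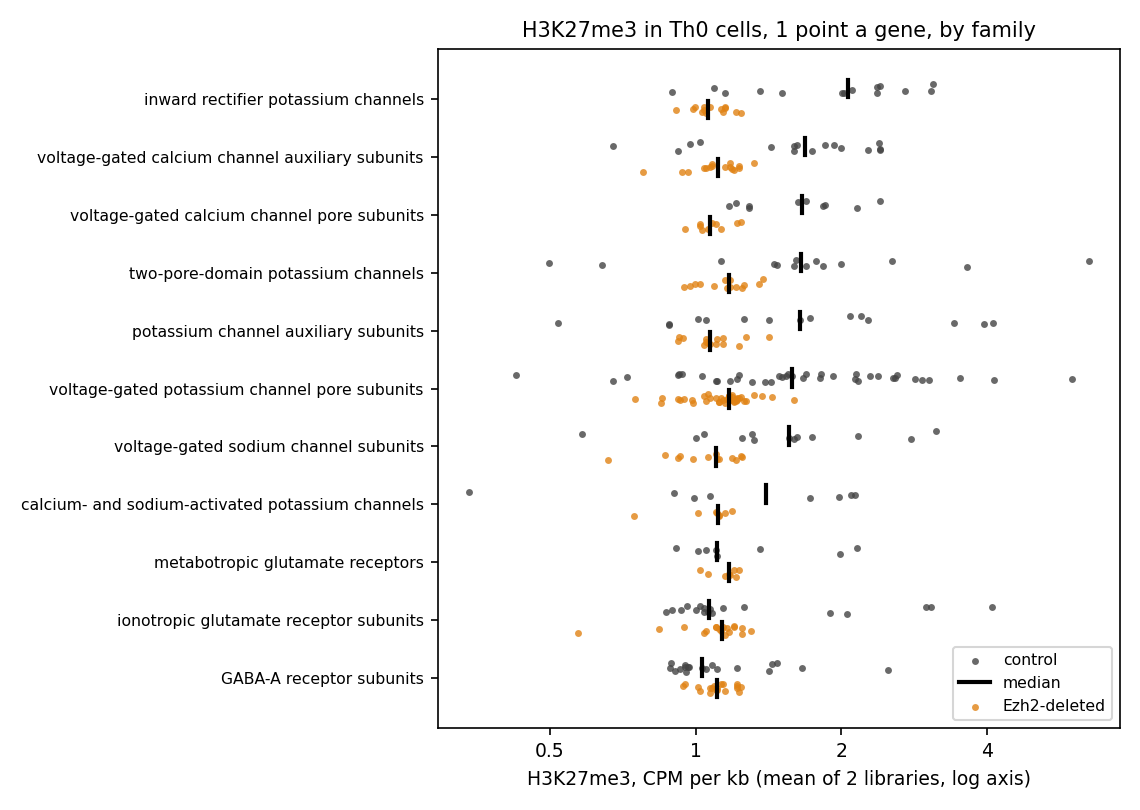
H3K27me3 density of each gene with reads in control (grey) and Ezh2-deleted (orange) Th0 cells, in CPM per kb on a log axis (means of 2 libraries), by family, with the family median over these genes as a bar. Control points spread to the right of the deleted ones in the potassium, calcium and sodium channel families, while GABA-A genes overlap between genotypes.

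Of the 7 genes on the X chromosome, 5 were not called and 2 were lower. Gria3 stood at 0.524 and 1.51 CPM per kb in control libraries 33 and 7 and at 0.996 and 0.687 in deleted ones, and Gabra3 at 0.636 and 1.43 and then 1.08 and 0.936. In both, the controls lay on either side of the deleted libraries. Cacna1f and Kcne1l were called lower and lay below both controls in both deleted libraries, at 2.11 and 2.20 and then 1.11 and 0.923, and at 2.97 and 4.90 and then 1.42 and 1.05.

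Genes of related function were read from 3 other lists. One of 33 other neuronal channel and receptor genes found in the files (among them Hcn, glycine, serotonin and nicotinic receptor genes) had 17 of 32 lower (53.1%), and a median density of 1.56 CPM per kb in control cells. The 29 genes of T cell calcium and ion transport had a median of 0.652 in control cells, with 3 lower (10.3%) and 17 higher (58.6%), and 11 of 13 calcineurin and NFAT genes were higher. Over all intervals with at least 1 CPM of RNA in every Th0 control library, 4.66% were lower and 62.0% higher. The lists were drawn up with results of these data known.

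RNA of most channel and receptor genes was at or near 0. Of the 181, 47 (26.0%) had no read in any of the 12 libraries, against 24.5% of all genes, and 42 had at most 3 counts in every library. A count of 0 allows up to 3 counts in a library. Enough reads for a test were present for 56 (30.9%), against 54.8% of all genes, and 36 (19.9%) reached 1 CPM in every library of some group, against 49.7%. Only 22 did so in Th0 control cells, 27 in Th0 Ezh2-deleted, 27 in iTreg control and 21 in iTreg Ezh2-deleted cells. No GABA-A or metabotropic glutamate receptor gene reached that level in any group.

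Per kb of the gene length given with the RNA counts, Kcnn4 stood highest in Th0 control cells, at 53.1 ± 3.49 CPM per kb (SD, n = 3). It was followed by Kcnab2 at 31.3 ± 1.45, Kcnk5 at 24.4 ± 0.815, Grina at 20.9 ± 2.23 and Kcna3 at 11.1 ± 0.365. Cacnb3 (4.90 ± 0.333), Grik5, a kainate receptor subunit (3.14 ± 0.242), and Kcnh2, the hERG channel (2.19 ± 0.144), came next. Each of these means lay further from its neighbours than their SDs, which do not cover error in the length. That length is not of 1 transcript: for Kcna2 it was 11582 bases in a gene interval of 5313. The order depends on it, and in CPM alone Kcnab2 stood above Kcnn4. In Th0 Ezh2-deleted cells Kcnk5 (30.6 ± 5.91), Kcnab2 (30.0 ± 1.99), Grina (29.6 ± 1.40) and Kcnn4 (29.5 ± 3.83) did not differ beyond their spread on this scale. Of the 21 genes with at least 1 CPM in every Th0 control library and a ChIP interval, 8 (38.1%) had lower H3K27me3 in deleted cells, against 4.66% of all intervals expressed at that level. Their median control density of 0.938 CPM per kb compared with 0.473 for all such intervals. Among the 83 with no read in the Th0 control libraries, it was 1.43, and 43.9% of those tested were lower, against 1.24 and 28.7% for all intervals without a read there.

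Loss of Ezh2 in Th0 culture was accompanied by higher RNA of 5 and lower RNA of 1 of the 56 genes tested (edgeR, adjusted p under 0.05), a share of 10.7%. Over all genes 12% were called, 8.74% higher and 3.22% lower. Kcnk10 (TREK-2, a leak channel opened by stretch and lipids) had 4, 2 and 3 reads in control libraries 173, 176 and 177 (0.163, 0.0741 and 0.115 CPM) and, among deleted libraries, 38 in Ezh2KO.165, 43 in Ezh2KO.174 and 29 in Ezh2KO.175 (1.47, 1.60 and 1.02 CPM). Each deleted library was above each control (log2 change 3.46 ± 0.45; edgeR adjusted p = 0.00224). Kcnk10 passed the filter on low counts only through these deleted Th0 libraries, so in this comparison it could only be called higher. The call held under every alternative tried, unlike those of the other 5 genes, but these fits reuse the same libraries and give it no independent support. Kcnip3 had 0.0813, 0.148 and 0.229 CPM in control and 1.04, 1.89 and 1.44 in deleted libraries (3.17 ± 0.90, edgeR adjusted p = 0.0469). Both genes went from a handful of reads to about 1 to 2 CPM, with no overlap between genotypes. Such separation was common in Th0 cells. Each deleted library lay above each control in 33.2% of all genes tested and below each in 26.0%. Among the 56 channel and receptor genes these shares were 32.1% and 12.5%.

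Kcnk6 (TWIK-2), a leak channel found in many tissues, had 4.68, 6.12 and 6.72 CPM in control and 15, 13.5 and 13.7 in deleted Th0 libraries (log2 change 1.23 ± 0.27; edgeR adjusted p = 0.0162). Kcnn4 was the gene that fell, from 227, 209 and 199 CPM to 100, 125 and 128 (-0.88 ± 0.21, edgeR adjusted p = 0.0230). In neither gene did the genotypes overlap. Omitting 1 library of the Th0 groups left 1 gene called without control 176 or Ezh2KO.165, 2 without control 173 or 177, and 3 without Ezh2KO.174 or Ezh2KO.175. Omitting iTreg Ezh2KO.165 gave 14, and fitting the Th0 libraries alone gave 16. The share of all genes called in these fits is not given here.

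The other T cell channels changed less in Th0 cells. Kcna3 had 21.1, 22.2 and 22.5 CPM in control and 28.7, 28.2 and 27.7 in deleted libraries, without overlap. Its log2 change of 0.33 ± 0.38 did not pass in the fit of 12 libraries (edgeR adjusted p = 0.734) and passed with the Th0 libraries alone (edgeR adjusted p = 0.000712) and without iTreg Ezh2KO.165 (edgeR adjusted p = 0.0238). Kcnab2 (427, 467 and 458 and then 401, 434 and 458 CPM), Kcnk5 (81.2, 80.1 and 85.3 and then 126, 89.7 and 93.4) and Cacnb3 (28.9, 26.5 and 25.3 and then 26.9, 25.1 and 23.5) were not called. Kcnab2 and Cacnb3 overlapped between genotypes, and Kcnk5 did not. Of 29 other genes of T cell calcium and ion transport, 3 rose and 3 fell, among them the calcium release channel Ryr1 (1.27 ± 0.23, edgeR adjusted p = 0.00613) and Orai1 (-0.62 ± 0.13, edgeR adjusted p = 0.0117). Of the 13 calcineurin and NFAT genes, Ppp3cc and Ppp3ca rose.

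Set against the mark, the 5 genes with higher RNA in Th0 cells all had lower H3K27me3. Among these 5, Kcnk10 could only be called higher, since it passed the filter only through the deleted Th0 libraries. The gene with lower RNA, Kcnn4, had a higher mark. So did 62.0% of all intervals tested with at least 1 CPM of RNA in every Th0 control library. Of 29 genes with lower H3K27me3 that could be tested in RNA, 5 (17.2%) were higher by edgeR, against 31.3% of all 1387 such genes, and 9 by DESeq2. None of the 29 was lower by edgeR or DESeq2 (0 also at an unadjusted p under 0.05), against 1.73% of all such genes. Of the 18 whose mark was not called, 0 changed in RNA by edgeR (1 at an unadjusted p under 0.05) and 1 by DESeq2, against 11.3% higher and 3.58% lower over all genes of that class by edgeR. Of 6 with a higher mark 1 fell (Kcnn4), against 3.33% lower and 2.5% higher over all such genes. The median RNA log2 change was 0.48, -0.22 and -0.20 in these 3 classes, against 1.01, 0.05 and -0.06 over all genes. Most losses of the mark could not be set against an RNA test. Of the 91 genes with lower H3K27me3, 31.9% had enough reads for it, against 33.0% of all such genes. No read in any RNA library was found for 14 (15.4%, against 21.1%). In each deleted Th0 library 47 (51.6%) had at most 3 counts, against 54.1%. These shares are near or below those of all genes with a lower mark. Kcnk4 and Kcna7, with the largest falls of the mark, had too few reads to be tested in RNA. The ChIP and RNA libraries carry different numbers, so the 2 measures were not taken on matched samples as far as the labels tell.

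**Figure D4:**
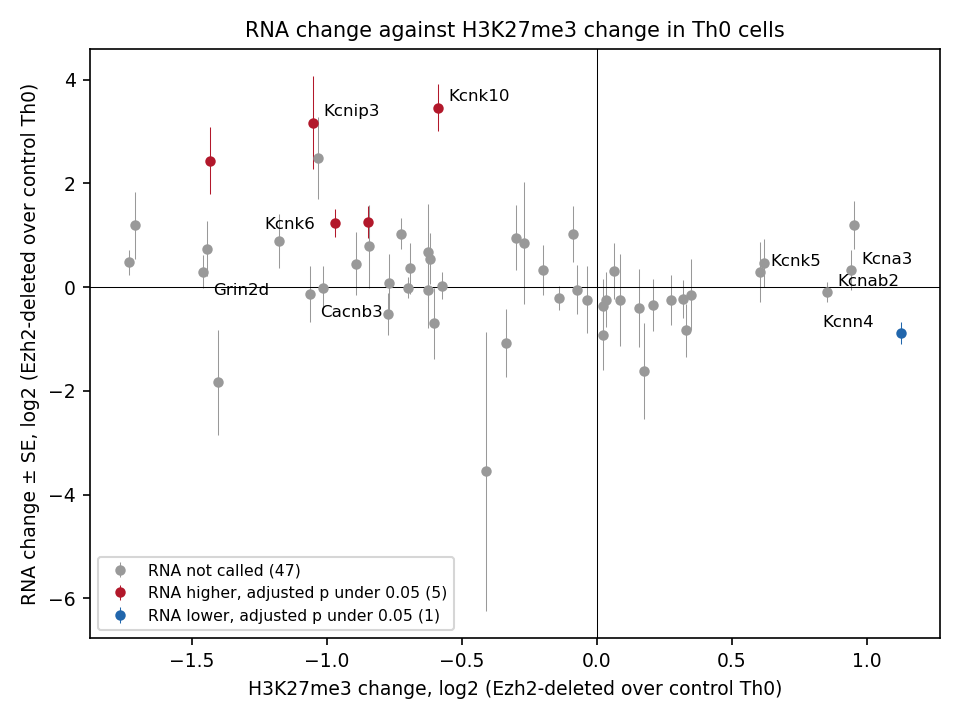
Log2 RNA change with its SE (y axis, 3 against 3 libraries) and log2 H3K27me3 change (x axis, 2 against 2) in Ezh2-deleted against control Th0 cells for the 53 genes tested in both; colour gives the RNA call. The 5 genes with higher RNA lie to the left of 0 and Kcnn4 lies at the lower right, while most genes left of 0 were not called in RNA. The median RNA change of the 29 genes with lower H3K27me3 was 0.48.

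In iTreg culture 13 of 56 genes were called, 8 lower and 5 higher, a share of 23.2% against 16.7% of all genes (7.26% lower and 9.45% higher). Grin2d had 6.05, 5.51 and 9.67 CPM in control libraries 154, 155 and 177 and 1.12 in Ezh2KO.150, 0.943 in Ezh2KO.153 and 1.60 in Ezh2KO.165 (log2 change -2.53 ± 0.31; edgeR adjusted p = 0.000552). Kcnh2 had 23.6, 22.8 and 17.2 and then 4.13, 5.49 and 8.44 (-1.81 ± 0.24, edgeR adjusted p = 0.000832). Cacna1c, the L-type calcium channel of heart and brain, had 13.4, 16.7 and 4.03 and then 0.619, 0.557 and 0.137 (-4.67 ± 0.65, edgeR adjusted p = 0.00100). None of the 3 overlapped between genotypes, and their calls held under every alternative tried. In this culture each deleted library lay below each control in 12.8% of all genes tested and above each in 12.7%. Among the 56 channel and receptor genes these shares were 28.6% and 8.93%.

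Kcnh4, a Kv12-type channel, had 5.90, 7.59 and 3.75 CPM in control and 0.702, 0.643 and 0.0913 in deleted libraries. Scn9a (Nav1.7 of pain-sensing neurons) had 3.81, 5.55 and 1.53 and then 0.0826, 0.214 and 0. Kcnf1 had 1.71, 3.92 and 5.96 and then 0.0826, 0 and 0.456. The deleted libraries were again below each control, with edgeR adjusted p-values of 0.00179, 0.00283 and 0.00513. Kcnk6 had 64.2, 78.1 and 50.5 and then 34.3, 37.9 and 17.9, and also fell (-1.09 ± 0.27, edgeR adjusted p = 0.0195). The Scn9a interval overlaps another gene, and whether RNA reads were counted by strand is not given in the sources used here.

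Kcnj8 (Kir6.1, the pore of vascular ATP-sensitive channels) rose most among the genes higher in iTreg cells, from 0.762, 0.612 and 0.363 CPM to 5.66, 4.59 and 16.2 (log2 change 3.92 ± 0.60; edgeR adjusted p = 0.00165). Scn3b, a sodium channel beta subunit, went from 0.0762, 0.204 and 0.604 to 3.51, 2.10 and 2.42 (3.18 ± 0.63, edgeR adjusted p = 0.00699). Kcna3 went from 26.6, 21.6 and 27.6 to 62.7, 57.9 and 190 (2.04 ± 0.39, edgeR adjusted p = 0.00582), with iTreg Ezh2KO.165 the high value, and the change was 1.26 without that library. In Kcnj8, Scn3b and Kcna3 each deleted library lay above each control. Kcnj8 and Scn3b had lower H3K27me3 in Ezh2-deleted Th0 cells, and no ChIP library came from iTreg cells.

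Single libraries decided several iTreg values. Kcnn4 had 194, 181 and 202 CPM in control and 127, 130 and 226 in deleted libraries. It did not pass with Ezh2KO.165 (log2 change -0.25; edgeR adjusted p = 0.523) and passed without it (-0.58, edgeR adjusted p = 0.00315). Kcnk5, at 40.5, 38.4 and 15.3 and then 72.4, 76.5 and 10.7, likewise passed without Ezh2KO.165 (1.25, edgeR adjusted p = 0.0128). Cacnb3, at 27.6, 29.5 and 46.7 and then 35.2, 29.9 and 158, changed by 1.11 with that library and by -0.081 without it. Kcnab2, at 380, 377 and 246 and then 271, 287 and 198, passed without control 177 (-0.59, edgeR adjusted p = 0.0323). The count of genes called was 28 without iTreg Ezh2KO.165 and 5 when the iTreg libraries were fitted alone (Grin2d, Kcnh2, Cacna1c and Scn9a lower and Kcnj8 higher). Shares over all genes in these fits are not given here.

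**Figure D5:**
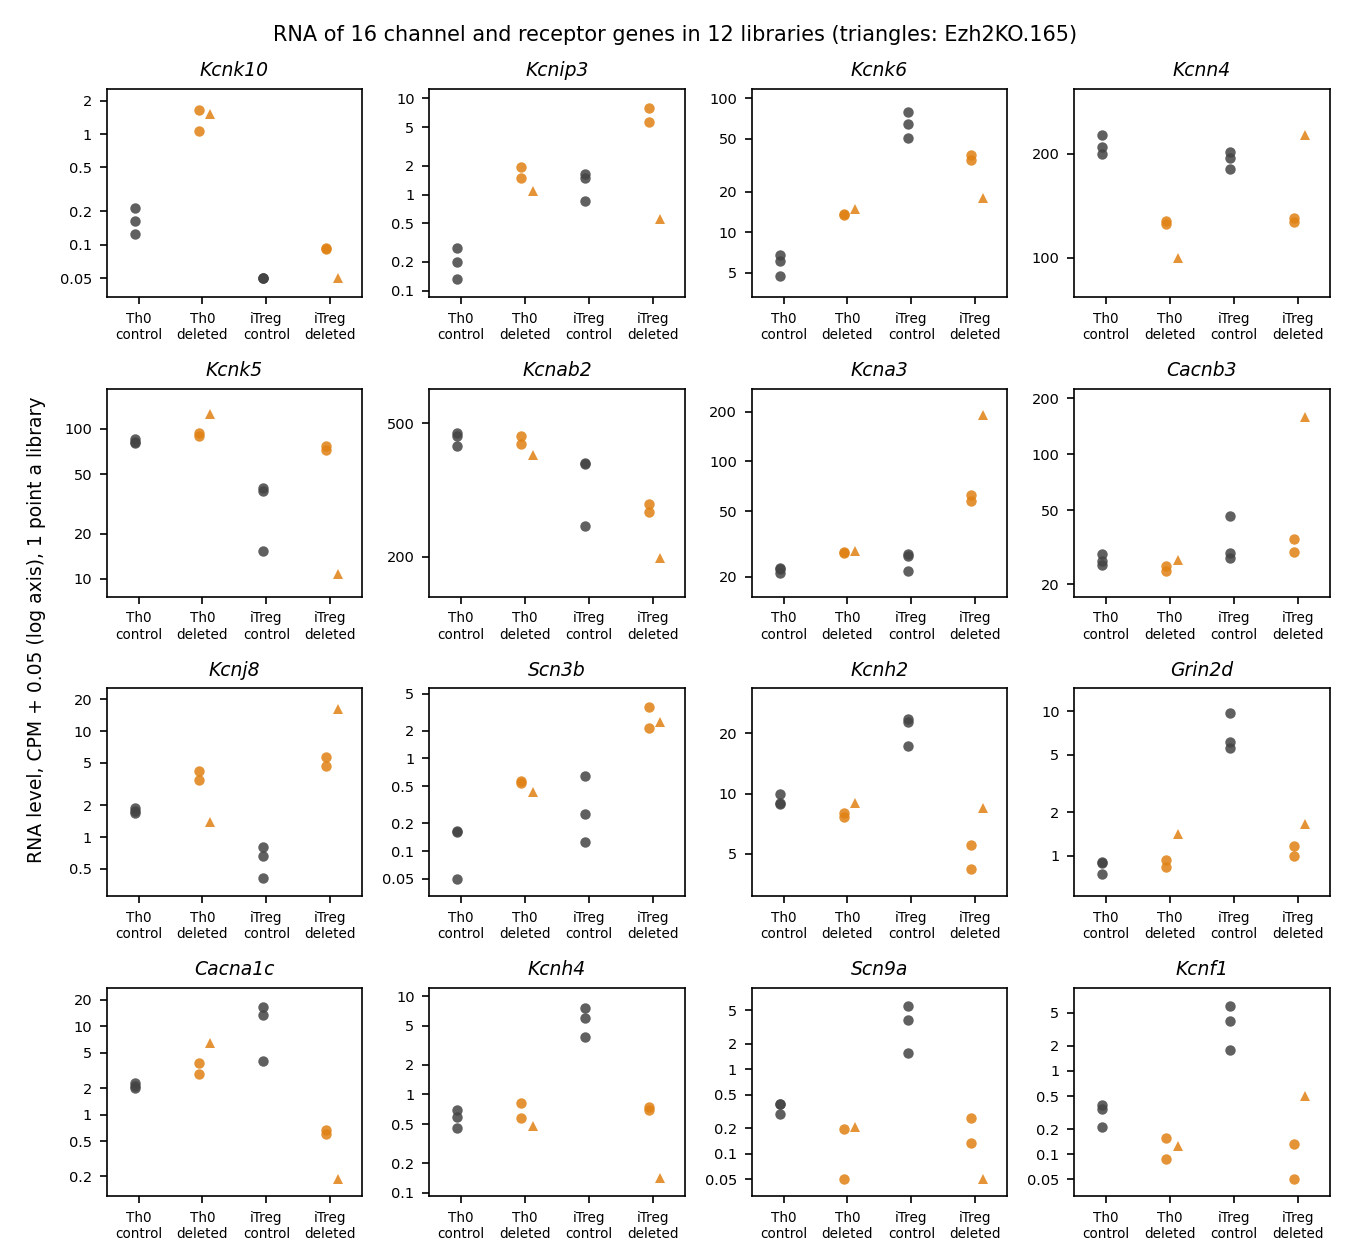
RNA level of 16 channel and receptor genes in each of 12 libraries (CPM + 0.05 on a log axis; 3 libraries a group; grey control, orange Ezh2-deleted, triangles Ezh2KO.165). Kcnk10 is high in Th0 Ezh2-deleted libraries alone, whereas Grin2d, Cacna1c, Kcnh4, Scn9a and Kcnf1 are high in iTreg control libraries and Kcnj8 in iTreg Ezh2-deleted ones.

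Culture itself moved 17 of 56 genes in control cells (30.4%, against 31.4% of all genes), 16 of them higher in iTreg than in Th0 cells. Over all genes 19.9% were higher and 11.5% lower. Kcnk6 rose most clearly, by 3.39 ± 0.29 on the log2 scale (edgeR adjusted p = 7.9e-05), with further rises in Grin2d (3.08 ± 0.32, 0.000231), Kcnh4 (3.36 ± 0.54, 0.00211) and Cacnb1, a calcium channel beta subunit (3.17 ± 0.53, 0.00248). Kcnk10 was the gene called lower, but it passed the filter through its reads in Th0 Ezh2-deleted cells. In control cells it had 4, 2 and 3 reads in Th0 and 0 in each iTreg library, near the 3 counts that a count of 0 allows, so no fall could be shown at this depth. In Ezh2-deleted cells 14 of 56 were called (25%, against 25.4% of all genes), 10 higher and 4 lower, with 16.6% of all genes higher and 8.75% lower. Kcnk10 went from 110 reads over the 3 Th0 libraries to 2 over the 3 iTreg libraries. Cacna1c fell by 3.32 ± 0.63 and Kcnab2 by 0.81 ± 0.19 (edgeR adjusted p = 0.00719 and 0.0166), while Kcna3 and Scn3b rose by 1.85 ± 0.39 and 2.48 ± 0.60 (0.0115 and 0.0184). Cacna1c therefore went up with iTreg culture in control cells (2.37 ± 0.56, edgeR adjusted p = 0.0120) and down in Ezh2-deleted cells. The comparisons within one culture and across cultures share libraries and are not independent of each other.

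The difference between the genotype changes of the 2 cultures was itself tested, and 5 of 56 genes passed (8.93%, against 4.49% of all genes), each with a lower value in iTreg, as had 2.86% of all genes. For Kcnk6 the sign turned: Ezh2-deleted cells had more of its RNA in Th0 and less in iTreg culture, with a difference of -2.33 ± 0.38 (edgeR adjusted p = 0.00940). For Cacna1c, Grin2d, Kcnh2 and Kcnh4 the genotypes differed in iTreg cells and did not pass in Th0 cells. Kcnh2 and Kcnh4 no longer passed when any 1 library of the Th0 groups was left out (edgeR, 3 genes called each time); Cacna1c, Grin2d and Kcnk6 passed in each of these fits. For Kcnj8, whose mark was lower in Th0 cells and whose RNA rose in iTreg cells, the difference of 3.18 ± 0.78 did not pass (edgeR adjusted p = 0.0508).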

How the data were processed

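Per the submitters' processing notes, reads were trimmed with Trimmomatic 0.30, aligned to mm10 with TopHat2 2.0.6 (RNA) or Bowtie2 2.1.0 (ChIP), and counted with featureCounts 1.4.2. The authors deposited raw read counts per gene for RNA and per whole-gene interval for ChIP. Of the 180 ChIP intervals, 154 overlap no other, and the 4 wholly overlapped ones (Kcna1, Kcnj13, Kcnmb1 and Scn2b) hold no reads. The strand setting is not given in the sources used here.

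Counts were tested with edgeR 4.0.16 in R 4.3.3 (robust quasi-likelihood F test, two-sided, filterByExpr with a minimum count of 10, Benjamini-Hochberg adjustment over all features, threshold 0.05). RNA used TMM scaling and all 12 libraries in 1 fit of 4 groups (12845 genes tested). ChIP used library size alone and 4 libraries (20376 intervals), since TMM would centre most intervals on no change. No input or spike-in was used here. Library size scaling also fixes the total, so neither scaling can show a global loss, and a rise is relative to other intervals. DESeq2 1.42.0 was an alternative. CPM uses the library total, and density is CPM per kb of interval. Errors of log2 changes are SEs from the fit.

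The genes and lists were chosen with earlier results of these data known. Genes were named by a rule: 7 T cell or fixed channel genes (Kcna3, Kcnn4, Kcnk5, Kcnab2, Cacnb3, Cacna1s, Kcnj8), each gene called between genotypes in RNA, the 5 smallest p for the interaction and for each culture contrast, the 8 highest and 3 lowest densities (at least 1 kb, no overlap), the 8 largest falls and 5 largest rises of the mark with at least 20 counts in each library of the higher group, and up to 4 called genes per list. Family examples beyond it were chosen after their values were seen. Some genes that the rule names are not reported here. Lists covered calcium and ion transport, calcineurin and NFAT, other neuronal channels, REST, PRC2, and CD4 T, CD8 T, B, myeloid, NK, neuron and glia markers. The tests were tested on simulated data, where the H3K27me3 test made more false calls than its threshold allows. Its counts are therefore read beside the share over all intervals, which does not correct its p-values for single genes. The limit of 3 counts set for a library without reads covers counting error only. Replicates were compared, and no pair matched within sampling noise. Promoters came from RefSeq (GRCm38.p6), 1 per gene, with a start site within 1000 bases of the interval's start.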

Additional observations from a re-analysis of the deposited data

Results flagged for a closer look

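In 5 genes the change with Ezh2 deletion differed between the cultures by a test of that difference (iTreg change minus Th0 change, log2, edgeR). The values were -5.69 for Cacna1c, -2.83 for Grin2d, -2.33 for Kcnk6, -1.61 for Kcnh2 and -3.64 for Kcnh4, each with 3 libraries per group. In Kcnk6 each Ezh2-deleted library was above each control in Th0 culture and below each control in iTreg culture.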

How the results depend on the processing

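The count of channel and receptor genes called moved with the fit. The share of all genes called in the same fit is not given beside these counts. They therefore do not show whether channel and receptor genes moved more than other genes. With DESeq2 it was 11 for genotype in Th0, 10 for the difference between cultures, 30 for culture in control cells and 24 for culture in Ezh2-deleted cells. Without iTreg Ezh2KO.165 and iTreg control 177 together, the counts were 21 (Th0), 30 (iTreg), 23 (difference), 31 (culture, control) and 27 (culture, deleted). Without both Ezh2KO.165 libraries they were 25 (iTreg), 11 (difference) and 35 (culture, control). With only the groups compared in the fit they were 16 (Th0), 5 (iTreg), 28 (culture, control) and 3 (culture, deleted). Leaving out 1 library at a time gave 1 to 14 (Th0), 11 to 28 (iTreg), 3 to 13 (difference), 14 to 34 (culture, control), 3 to 21 (culture, deleted) and 0 to 104 (H3K27me3). The RNA maxima of 14, 28, 13 and 34 came without iTreg Ezh2KO.165. Culture in deleted cells gave 4 without Th0 Ezh2KO.165, and 3 without either Th0 Ezh2KO.174 or Th0 Ezh2KO.175, and 9 without Th0 control 173 or 177. The difference between cultures gave 3 without iTreg control 154 or 155. The H3K27me3 counts of 0 (edgeR) came without Ezh2KO.10 or Ezh2KO.9, with 115 and 83 genes at an unadjusted p under 0.05. With X and Y intervals left out, an alternative chosen after seeing the data, the count without Ezh2KO.9 was 70. The median control density was 1.59 over intervals without overlap, 1.60 with TMM and 1.41 to 1.56 in single control libraries. Cacnb3 in iTreg changed sign, to -0.0812 without iTreg Ezh2KO.165 and -0.0816 without both Ezh2KO.165 libraries, and ran from -0.0812 to 1.48 when 1 library at a time was left out. The causes of these shifts were not tested.

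No paired analysis was possible because the genotypes share no library number and the cultures share only 1 within a genotype. With 2 ChIP libraries per genotype and RNA counts near 0 for most of the genes, small changes could not be seen at this depth.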
